A study of Mus musculus with 3 samples.

Results

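CD4 T cells and Foxp3-positive regulatory T cells were a small population of tumours grown in mouse bone: 76 of 28522 cells kept, in 3 single-cell libraries, carried their transcripts by the rule used here. A cell was kept with 300 or more detected genes and at most 15% of its unique molecular identifiers (UMIs, each counting 1 captured RNA molecule) from mitochondrially encoded genes. It was then a member when it held 1 or more UMIs of Cd3e, Cd3d and Cd3g together, 1 or more of Cd4 and Foxp3 together, none of Cd8a, Cd8b1 or Adgre1, at most 2 of C1qa, C1qb and C1qc, and at most 3 of Krt8 and Krt18. Cd3e, Cd3d and Cd3g encode the CD3 chains of the T cell receptor complex, Cd8a and Cd8b1 the CD8 co-receptor, Adgre1 and the C1q genes mark macrophages, and Krt8 and Krt18 are keratins of the tumour cells. Of the 76 cells, 39 held a Foxp3 UMI and are called Foxp3-positive, and 37 held Cd4 without Foxp3 and are called Foxp3-negative. Levels of these rule genes chose the cells and are given as a description only.

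CD4 T cells recognise peptides on MHC class II molecules and direct other immune cells through cytokines and contact molecules. Regulatory T cells are the branch that expresses the transcription factor Foxp3; they restrain other T cells through CTLA-4, through interleukin-2 uptake by the receptor chain CD25 (Il2ra) and through suppressive cytokines. In tumours such cells are known for high levels of TNF receptor family members such as OX40 (Tnfrsf4) and GITR (Tnfrsf18).

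The tumours came from LLC1, a Lewis lung carcinoma cell line. A suspension of 1000000 cells in 10 µL was injected into the marrow cavity of the right tibia, and tumours were taken on day 14 from mice 8 weeks old. The groups were wild-type mice (WT), DMP1-Cre Mfn2-/- mice and DMP1-Cre Rhot1-/- mice, called the Mfn2 and Rhot1 libraries; no Cre allele is named for WT, and the labels name neither strain nor sex. Mfn2 encodes a mitochondrial fusion protein, Rhot1 a mitochondrial transport protein, and DMP1-Cre is a driver known for its activity in osteocytes, so T cells are not its named target. Tumours of 3 mice, in equal amounts, made up each library, which was sorted only for live cells and made with a 10x Genomics kit that reads the 3′ ends of transcripts. One library stands for each genotype, so genotype comparisons have no replicate check and carry no p-value, and both use the same WT library. Intervals below are 95% intervals for counting error only.

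WT gave 9295 kept cells, Mfn2 9868 and Rhot1 9359, with 112088653 to 118223251 UMIs a library and a median of 9927 to 12024 UMIs per cell. Libraries shared 20 to 35 barcodes pairwise. The members were shallower, with a median of 2177.5 UMIs (609 to 19170) and 211108 UMIs in all. The targeted genes could not check the labels in these cells: Mfn2 gave 2, 1 and 0 UMIs and Rhot1 gave 1, 0 and 2 in the members of the WT, Mfn2 and Rhot1 libraries, and a 3′ tag can lie outside a deleted part.

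The T cell label was checked with genes that the rule did not use. All 39 Foxp3-positive cells and 35 of 37 Foxp3-negative cells held a UMI of at least 1 of 12 further T cell genes (Trac, Trbc1, Trbc2, Cd2, Cd5, Cd6, Cd28, Lat, Lck, Thy1, Skap1 and Themis). At least 3 of these genes were seen in 37 Foxp3-positive and 34 Foxp3-negative cells, and the median was 6 genes per cell in both. Trac, the constant part of the T cell receptor alpha chain, was found in 30 of 39 Foxp3-positive and 24 of 37 Foxp3-negative cells. Markers fixed for gamma-delta T cells (of which 3 of 6 symbols were in the files) and erythroid cells gave 0 UMIs in the members, and those of natural killer cells 5 UMIs in all. Genes shared with group 2 innate lymphoid cells, Gata3 among them, gave 30 UMIs in 23 members.

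The rule rested on few molecules per cell. Foxp3 gave 68 UMIs in all, with 22 of the 39 Foxp3-positive cells at 1 UMI and the highest at 5. Cd4 gave 79 UMIs, was found in 17 Foxp3-positive cells, and was absent from the other 22. Just inside the limits were 5 members with 1 CD3 UMI, 38 with 1 Cd4 or Foxp3 UMI, 25 with 1 or 2 C1q UMIs and 13 with 1 to 3 keratin UMIs. Just outside were 5 cells left out for a CD8 UMI, 2 for Adgre1, 2 for C1q and 4 for keratin, and 13 cells within the depth limits that held Cd4 or Foxp3 but no CD3 UMI, 7 of them with Foxp3. A larger group held CD3 within the same limits but no Cd4, Foxp3 or CD8 UMI: 163 cells in WT, 39 in Mfn2 and 64 in Rhot1. How many of those were CD4 cells without a captured Cd4 molecule was not tested, so the member counts depend on capture. A Foxp3-negative cell is therefore a cell in which no Foxp3 molecule was captured at a median of 2357 UMIs. UMIs of these genes were also seen in cells that should lack them, and whether they came from free RNA or from shared droplets was not tested: among tumour cells with 10 or more keratin UMIs, which had a median of 18282 to 21285.5 UMIs, Cd4 was seen in 1 of 2572, 8 of 3393 and 2 of 2992 cells and Foxp3 in 1, 4 and 4. A CD3 UMI was more frequent there, in 2.33%, 1.21% and 1.44% of those cells in WT, Mfn2 and Rhot1. Among cells with 10 or more C1q UMIs, Cd4 was seen in 5 of 918, 2 of 815 and 7 of 817 and Foxp3 in 1, 0 and 2. Cells with 50 or more S100a8 and S100a9 UMIs were shallower, with medians of 1308, 1236.5 and 1456 UMIs. They held a CD3 UMI in 1.88%, 0.86% and 0.533%, Cd4 in 1, 0 and 0 cells and Foxp3 in 0, 0 and 1.

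CD4 and Foxp3 T cells made up a smaller share of kept cells in both knockout libraries than in WT. WT held 37 of them, 0.398% of kept cells (Clopper-Pearson interval 0.280 to 0.548), Mfn2 18, 0.182% (0.108 to 0.288), and Rhot1 21, 0.224% (0.139 to 0.343). The ratio to WT was 0.458 (0.246 to 0.826) for Mfn2 and 0.564 (0.313 to 0.988) for Rhot1, so each interval lay below 1, that of Rhot1 only just. The ratio followed the denominator. Over CD3-positive cells within the same macrophage and keratin limits, a denominator added after seeing the data, members were 11.6%, 18.0% and 12.6% in WT, Mfn2 and Rhot1, which turned both ratios above 1 (1.55 and 1.08); over all CD3-positive cells the Mfn2 ratio was 1.25. Per CD8 T cell, selected by the same limits with a CD8 UMI and no Cd4 or Foxp3, there were 0.316 (0.212 to 0.461), 0.439 (0.237 to 0.781) and 0.259 (0.152 to 0.423) members, and these intervals overlapped. CD8 T cells were themselves fewer, at 0.330 (0.225 to 0.475) of the WT share in Mfn2 and 0.688 (0.511 to 0.921) in Rhot1.

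**Figure D1:**
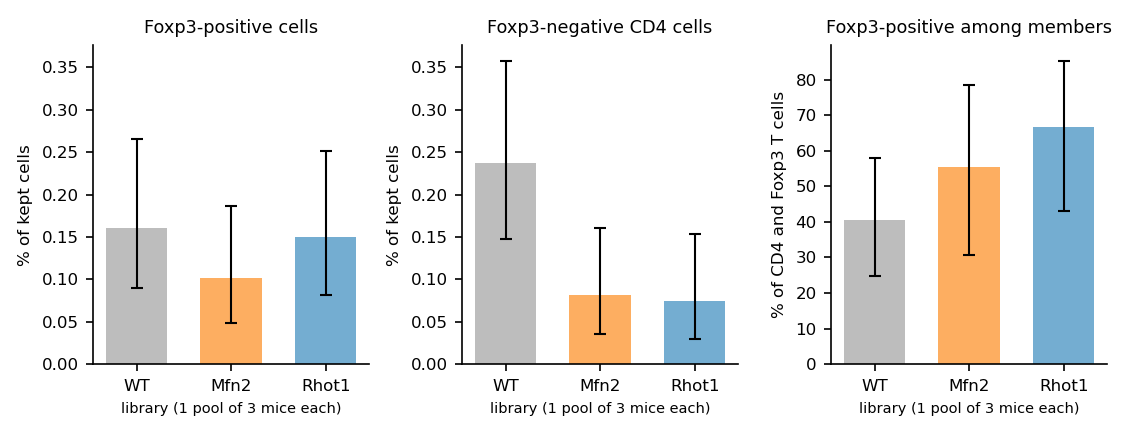
Share of kept cells that were Foxp3-positive or Foxp3-negative CD4 T cells, and share of CD4 and Foxp3 T cells that were Foxp3-positive, in percent, for the 3 libraries; bars give the share and lines the 95% Clopper-Pearson interval. Foxp3-negative cells were at 0.237% in WT against 0.0811% and 0.0748% in Mfn2 and Rhot1. The drawn intervals of WT and each knockout library overlap for Foxp3-negative and for Foxp3-positive cells.

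The 2 branches are given apart. Foxp3-negative cells were 22 in WT, 8 in Mfn2 and 7 in Rhot1, or 0.237% (0.148 to 0.358), 0.0811% (0.0350 to 0.160) and 0.0748% (0.0301 to 0.154) of kept cells, with ratios to WT of 0.343 (0.132 to 0.799) and 0.316 (0.114 to 0.766). Foxp3-positive cells were 15, 10 and 14, or 0.161% (0.0903 to 0.266), 0.101% (0.0486 to 0.186) and 0.150% (0.0818 to 0.251), with ratios of 0.628 (0.252 to 1.49) and 0.927 (0.415 to 2.06) whose intervals include 1. Among the members, the Foxp3-positive share was 40.5% (24.8 to 57.9) in WT, 55.6% (30.8 to 78.5) in Mfn2 and 66.7% (43.0 to 85.4) in Rhot1, and these intervals overlap. A difference in this share was not detectable at these cell numbers. With 2 or more Foxp3 UMIs required, it was 18.9%, 22.2% and 28.6%.

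Compared with Foxp3-negative cells of the same libraries, Foxp3-positive cells held more Ikzf2, Tnfrsf4, Tnfrsf18, Ifi27l2a and Emp3 and less Cxcr6, Ifng, Klrd1 and Ms4a4b. UMIs were summed per library for Foxp3-positive cells, Foxp3-negative cells and CD8 T cells and tested together with edgeR's quasi-likelihood test, with the library as a block and Benjamini-Hochberg adjustment over 4390 genes; the 13 genes of the rule were left out. The replicates are 3 pools that differ in genotype, so these p-values measure how alike the populations differ across those pools. Between the branches, 5 genes (0.114% of those tested) were higher in Foxp3-positive cells and 8 (0.182%) lower.

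Ikzf2, which encodes Helios, a transcription factor of regulatory T cells, stood at 1664, 1120 and 1634 CPM (UMIs scaled to a total of 1000000 per sum) in Foxp3-positive cells of WT, Mfn2 and Rhot1 and at 580, 398 and 394 in Foxp3-negative cells. Every Foxp3-positive sum lay above every Foxp3-negative sum, and CD8 T cells were lower still at 166 to 241 CPM. The log2 difference was 1.61 ± 0.31 (SE; edgeR adjusted p = 0.000221), and 33 of 39 Foxp3-positive cells held the transcript against 16 of 37 Foxp3-negative cells. The gene lies on chromosome 1 at 69531214 to 69687245 on the minus strand (mm10). Its call was lost in 4 of 13 alternatives: without the WT library (adjusted p = 0.0800), without the Rhot1 library (0.308), with cells thinned to 1500 UMIs (0.254) and with 2 or more Cd4 UMIs required of Foxp3-negative cells (0.480).

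The TNF receptor family gene Tnfrsf4 (OX40, a co-stimulatory receptor of activated CD4 cells) stood at 1636, 1444 and 2549 CPM in Foxp3-positive and at 500, 1062 and 875 CPM in Foxp3-negative cells. Its log2 difference was 1.19 ± 0.28 (adjusted p = 0.00953). Tnfrsf18 (GITR, a receptor used to recognise regulatory T cells) stood at 1387, 1326 and 1373 against 540, 558 and 743 CPM, with a log2 difference of 1.14 ± 0.30 (adjusted p = 0.0451). For both genes the groups did not overlap, and CD8 T cells were lower, at 85.6 to 121 CPM for Tnfrsf4 and 207 to 280 for Tnfrsf18. The 2 genes are neighbours on chromosome 4 (Tnfrsf4 at 156013843 to 156016612, Tnfrsf18 at 156026164 to 156028895, both on the plus strand, 9551 bases apart), and Tnfrsf4 begins 232 bases after Sdf4. Both calls were lost when the deepest cell of each sum was left out (adjusted p = 0.400 and 0.734). Over all alternatives the call of Tnfrsf4 was lost in 11 of 13 and that of Tnfrsf18 in all 13, with the log2 difference above 0 in each.

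Ifi27l2a, an interferon-stimulated gene on chromosome 12, had the smallest p-value of the higher genes. It stood at 2274, 2741 and 5295 CPM in Foxp3-positive cells and at 800, 903 and 1443 in Foxp3-negative cells, with CD8 T cells at 437 to 615. The log2 difference was 1.64 ± 0.23 (adjusted p = 4.51e-09), and 36 of 39 against 25 of 37 cells held the transcript. Emp3, which encodes a membrane protein, stood at 915, 619 and 948 against 380, 212 and 262 CPM (1.46 ± 0.36, adjusted p = 0.0181), a call lost in 9 of 13 alternatives, each library left out among them. Without the Rhot1 library the adjusted p of Ifi27l2a was 0.0551, and edgeR called 0 genes higher (84 at an unadjusted p under 0.05); DESeq2 on all 3 libraries called 2.

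**Figure D2:**
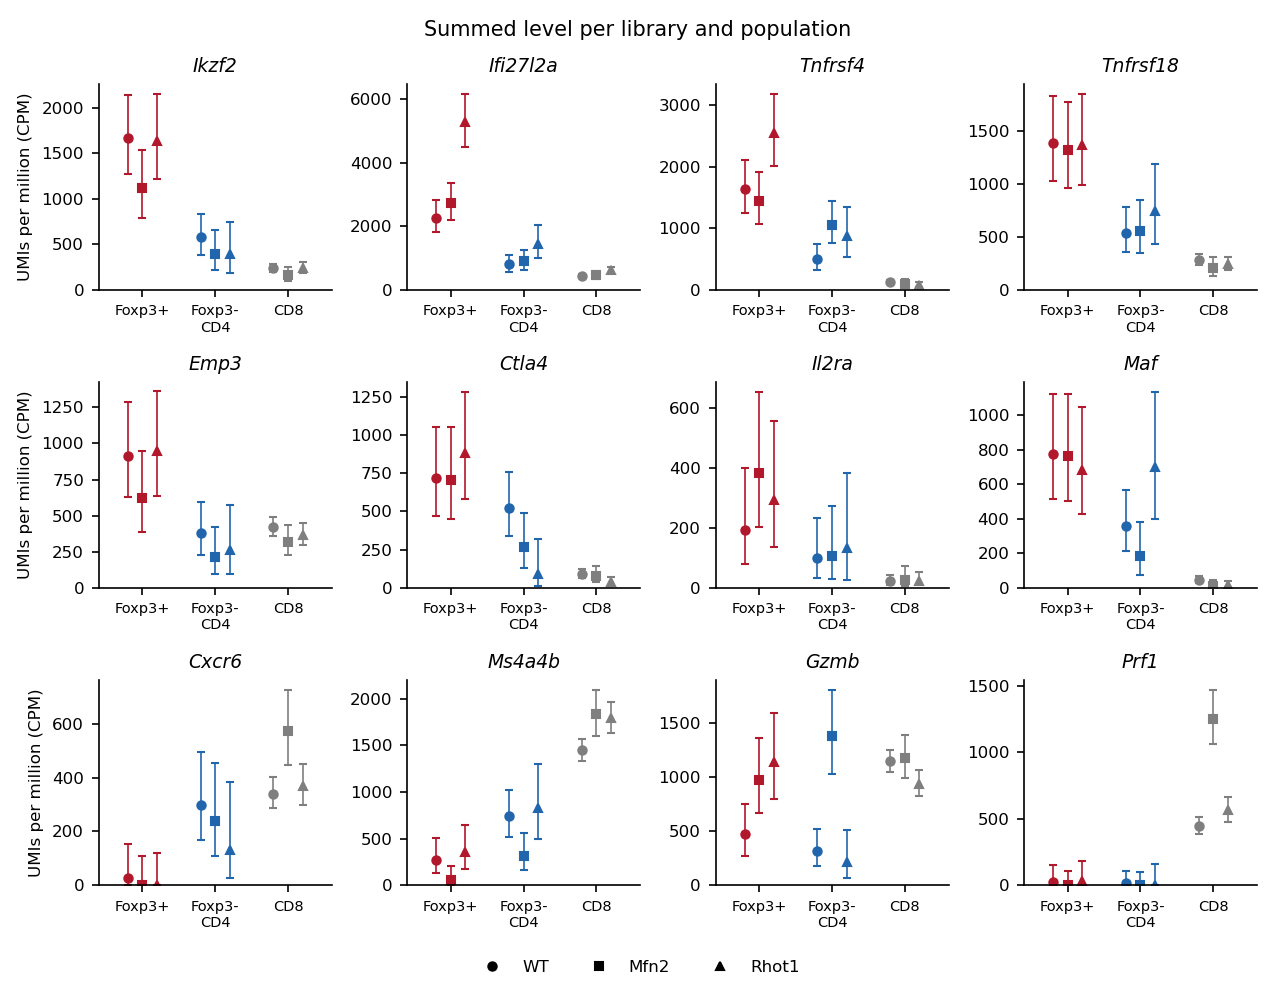
CPM of 12 genes in Foxp3-positive cells, Foxp3-negative CD4 cells and CD8 T cells; circles are WT, squares Mfn2 and triangles Rhot1, each a sum over cells with its 95% Poisson interval. Ikzf2 and Tnfrsf18 lie above the Foxp3-negative values in all 3 Foxp3-positive sums, and Cxcr6 had 1 UMI in Foxp3-positive cells.

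Other receptors known from regulatory T cells did not pass the test. Ctla4, the inhibitory receptor, stood at 721, 707 and 882 CPM in Foxp3-positive and 520, 266 and 87.5 in Foxp3-negative cells (1.32 ± 0.37, adjusted p = 0.104). Il2ra stood at 194, 383 and 294 against 100, 106 and 131 CPM (1.32 ± 0.59, adjusted p = 0.696). The sums did not overlap for either gene, and few molecules stood behind Il2ra: 29 and 12 UMIs. Lrrc32, which encodes the TGF-beta docking protein GARP, gave 7 UMIs in Foxp3-positive cells, 1 in Foxp3-negative cells and 0 in CD8 T cells, too few for the test.

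Regulatory genes were also counted per cell, as a description without a test. With each cell thinned to 1500 UMIs, 29 Foxp3-positive, 28 Foxp3-negative and 213 CD8 cells remained, and 10, 9 and 26 shallower cells were left out. Of 14 regulatory T cell genes outside the rule (among them Il2ra, Ikzf2, Ctla4, Tnfrsf18 and Izumo1r), Foxp3-positive cells held a median of 4 (2 to 7), Foxp3-negative cells 3 (0 to 8) and CD8 T cells 1 (0 to 6). At least 3 were present in 26 Foxp3-positive cells (89.7%), 16 Foxp3-negative cells (57.1%) and 54 CD8 cells (25.4%). By library, at least 3 were present in 85.7% of Foxp3-positive and 43.8% of Foxp3-negative cells in WT, in 6 of 6 and 4 of 6 cells in Mfn2, and in 8 of 9 and 5 of 6 in Rhot1, so the gap was widest in WT and small in Rhot1. Without thinning the medians over all libraries were 5, 4 and 3. The Foxp3-negative cells thus ranged from cells with none of these genes to a cell with 8.

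**Figure D3:**
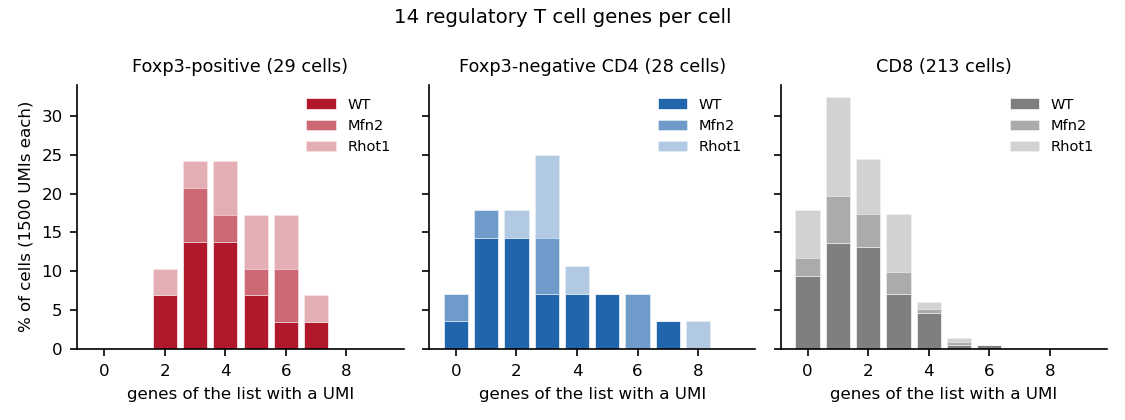
Number of 14 regulatory T cell genes with a UMI in each cell thinned to 1500 UMIs (x axis) against percent of the thinned cells of that population (y axis). Bars are stacked by library, for Foxp3-positive, Foxp3-negative CD4 and CD8 T cells. Foxp3-positive cells lie between 2 and 7 genes, Foxp3-negative cells between 0 and 8.

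Cxcr6, Ifng and Klrd1, genes of effector T cells, gave 1, 0 and 0 UMIs in Foxp3-positive cells. Cxcr6, a chemokine receptor of tissue effector T cells, gave 1 UMI in 39 Foxp3-positive cells and 27 UMIs in 14 of 37 Foxp3-negative cells (300, 239 and 131 CPM); the ratio was 0.0407 (conditional interval 0.000994 to 0.247; edgeR adjusted p = 0.000221). Ifng, the cytokine interferon gamma, gave 0 UMIs in Foxp3-positive and 19 in Foxp3-negative cells, at least 5.76-fold lower against a floor of 3 counts over the group (adjusted p = 0.00107). The 19 Ifng UMIs came from 4 cells, 2 of WT and 1 each of Mfn2 and Rhot1. Klrd1, the CD94 chain of killer-cell receptors, gave 0 against 11 UMIs, at least 3.34-fold lower (adjusted p = 0.0451). Ms4a4b, a membrane protein of T cells, stood at 277, 59.0 and 360 CPM in Foxp3-positive and 740, 319 and 831 in Foxp3-negative cells, a log2 difference of -1.48 ± 0.34 (adjusted p = 0.00793). Its ranges overlapped, since 319 CPM in Mfn2 Foxp3-negative cells is below 360 CPM in Rhot1 Foxp3-positive cells, but the difference had the same sign in each library. These 4 calls depended on the settings. Klrd1 was lost in 9 of 12 alternatives, among them thinning (adjusted p = 0.792) and each library left out, Ms4a4b in 7 of 13 and Ifng in 6 of 12, both with each library left out, and Cxcr6 in 3 of 12 (DESeq2, adjusted p = 0.609, and without Mfn2 or Rhot1, 0.139 and 0.132).

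For the remaining 4 lower genes the counts came from few cells or were missing from a library. Tnfsf8, the ligand of CD30, gave 0 against 22 UMIs and none of the 22 came from Mfn2. The chemokine gene Ccl1 gave 0 against 21 UMIs, all from 2 cells. Penk, the enkephalin precursor, gave 114 UMIs in WT Foxp3-negative cells, 111 of them in 1 cell, and 33 in Rhot1, 28 of them in 1 cell. Hsp90aa1, a heat shock chaperone, was lower by -1.28 ± 0.31 (adjusted p = 0.0181), but 80 of the 89 UMIs of Mfn2 Foxp3-negative cells came from 1 cell of 19170 UMIs that was marked as a doublet. With marked doublets removed, its log2 difference was -0.34 (adjusted p = 0.955).

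By gene list, few members passed the test between the branches. In simulated counts for this contrast, the fit recovered 6% of genes set 2-fold higher, 50% set 4-fold higher and 92% set 8-fold higher. It recovered 12% of genes set 4-fold lower, so a gene that did not pass can still differ. Of 9 tested regulatory identity genes, 2 were higher (Ikzf2 and Tnfrsf18) and none lower, with a median log2 difference of 1.06 beside 0.02 over all 4390 genes. Of 12 effector regulatory genes 1 was higher (Tnfrsf4) and 1 lower (Penk), with a median of 0.34. Of 9 T helper 1 genes 2 were lower (Ifng and Cxcr6), with a median of -0.33. Among 15 interferon-stimulated genes Ifi27l2a passed the test and the median was 0.68, and among 16 MHC class I presentation genes none passed and the median was 0.55. Of 14 cytotoxic genes only Klrd1 passed; their median was -0.24 from the fit and 0.39 with genes at 0 UMIs put at their bound, so its sign was not settled. T cell receptor signalling (18 genes), interleukin-2 and STAT5 (8), NF-kB (11), naive and central memory (8), proliferation (15), glycolysis (15), nuclear respiratory chain (32), mitochondrially encoded (9) and TGF-beta genes (8) had no member past the threshold, with medians between -0.19 and 0.44. None of 9 checkpoint and exhaustion genes passed either, with a median of -0.35 (-0.69 with genes at 0 at their bound).

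Against CD8 T cells, more regulatory genes passed the test: 6 of 9 regulatory identity and 8 of 12 effector regulatory genes were higher in Foxp3-positive cells. Part of this was shared by Foxp3-negative cells. Against CD8 T cells they had 3 of the 9 identity genes higher (Ctla4, Tnfrsf18 and Capg) and 1 lower (Il2rb), with a median log2 difference of 1.12. Of the 12 effector regulatory genes 6 were higher in them and 0 lower, with a median of 1.39. In the same edgeR fit 58 genes (1.32% of 4390) were higher in Foxp3-positive cells and 98 (2.23%) lower; with DESeq2 size factors in place of TMM the split was 66 higher and 69 lower. That scaling moved the median over all genes from -0.15 to -0.04, and from -0.13 to 0.00 in the contrast of Foxp3-negative with CD8 T cells described further on, so differences with CD8 T cells are read relative to those medians. Of 94 ribosomal protein genes, 43 were lower in Foxp3-positive cells with TMM and 25 with the other scaling, and none was higher. That count was 3, 7 and 2 without the WT, Mfn2 or Rhot1 library and 5 with the DESeq2 Wald test.

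Maf had the largest log2 difference of the genes named by rank, and Tnfrsf4, Ctla4 and Il2ra were among the first 10. Maf, a transcription factor of interleukin-10-producing and regulatory T cells, stood at 777, 766 and 686 CPM in Foxp3-positive cells against 43.4, 8.30 and 15.6 in CD8 T cells (log2 difference 4.65 ± 0.40, adjusted p = 2.31e-27), with 30 of 39 against 17 of 239 cells holding it. Tnfrsf4 differed by 3.92 ± 0.29 (adjusted p = 5.10e-37) and Ctla4 by 3.38 ± 0.36 (adjusted p = 2.37e-18). Ctla4 was at 86.9, 74.7 and 38.9 CPM in CD8 T cells. Il2ra was 3.31 ± 0.55 higher (adjusted p = 2.99e-07), from 18 UMIs in 239 CD8 T cells and 29 UMIs in 39 Foxp3-positive cells. Each of these genes was higher in all 3 libraries, and no CD8 sum reached a Foxp3-positive sum.

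Of the 9 tested regulatory identity genes 6 were higher than in CD8 T cells (Il2ra, Ikzf2, Ctla4, Tnfrsf18, Izumo1r and Capg) and none lower, with a median log2 difference of 2.26. Ikzf2 differed by 2.56 and Tnfrsf18 by 2.26. Izumo1r, which encodes folate receptor 4, a surface marker of regulatory T cells, stood at 83.2, 206 and 261 against 21.7, 33.2 and 11.7 CPM (2.77, adjusted p = 0.00138). Of the 12 effector regulatory genes 8 were higher (Tnfrsf4, Tnfrsf9, Icos, Areg, Gata3, Rora, Maf and Penk) and none lower, with a median of 2.25. Penk was not seen in Mfn2 Foxp3-positive cells, at 111, 0 and 196 CPM in WT, Mfn2 and Rhot1. Tnfrsf9 (4-1BB, a co-stimulatory receptor) stood at 1220, 619 and 1242 against 299, 199 and 338 CPM, and Icos, another co-stimulatory receptor, at 915, 678 and 686 against 174, 191 and 81.7. Areg, a growth factor of tissue regulatory T cells, gave 15 UMIs in 9 of 39 cells (2.29, adjusted p = 0.0151). Gata3, a transcription factor shared by T helper 2 and tissue regulatory T cells, stood at 194, 88.4 and 294 CPM against 23.3 to 33.2 (2.53, adjusted p = 0.00237).

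Of 10 migration genes 1 was higher than in CD8 T cells (Itgb7) and 1 lower (Cxcr6), and of 11 NF-kB genes 2 were higher (Nfkbia and Ltb) and none lower. Itgb7, an integrin chain used for homing to mucosa, stood at 638, 678 and 458 against 70.0, 58.1 and 101 CPM (2.70 ± 0.38, adjusted p = 4.18e-10). Il7r, the interleukin-7 receptor alpha chain, was higher by 1.44 (adjusted p = 0.00932), and Nfkbia, the inhibitor that NF-kB itself induces, by 1.74 (adjusted p = 7.05e-07). Itgb7, Il7r and Nfkbia were also called higher in Foxp3-negative cells than in CD8 T cells. The kinase gene Pim1 stood at 555, 442 and 523 against 135, 91.3 and 144 CPM (1.84 ± 0.36, adjusted p = 4.35e-05), and Ltb, lymphotoxin beta, at 1304, 707 and 1438 against 524, 481 and 556 CPM (0.88 ± 0.27, adjusted p = 0.0396). Slc15a3, Bmyc, Iigp1, Ass1, Slamf6 and Egr1 were also among the 10 largest differences, at log2 4.60, 4.28, 3.56, 3.52, 3.31 and 2.87, with 13 to 27 UMIs each in Foxp3-positive cells.

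Promoters of these genes were searched for the forkhead motif that Foxp3 and its relatives can bind, here TGTTTAC on either strand in the 250 bases before the start of each gene (RefSeq, GRCm38.p6). A promoter was matched for 42 of the 58 higher genes, and 2 (4.76%) held the motif, Ltb and Pim1, beside 3.54% of 27025 genes. None of 70 matched promoters of the 98 lower genes held it, nor any of 3 matched among the 5 genes higher than in Foxp3-negative cells. The share among higher genes was near that of all genes. The AP-1 motif TGANTCA was in 3 of the 42 (7.14%) and in 7.82% of all. The 2 promoters with a forkhead match are printed 5′ to 3′ on the strand of the gene, with the match, which reads on the opposite strand, in capitals; it begins 124 bases before the start of Ltb (chr17:35194257-35194506, plus strand) and 70 before that of Pim1 (chr17:29492835-29493084, plus strand). A match describes letters in this window and was not tested as a binding site.
Ltb: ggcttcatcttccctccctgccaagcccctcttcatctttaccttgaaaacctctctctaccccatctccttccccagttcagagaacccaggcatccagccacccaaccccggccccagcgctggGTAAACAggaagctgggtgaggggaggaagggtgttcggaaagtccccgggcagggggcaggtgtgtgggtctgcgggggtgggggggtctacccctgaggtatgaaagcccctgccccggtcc
Pim1: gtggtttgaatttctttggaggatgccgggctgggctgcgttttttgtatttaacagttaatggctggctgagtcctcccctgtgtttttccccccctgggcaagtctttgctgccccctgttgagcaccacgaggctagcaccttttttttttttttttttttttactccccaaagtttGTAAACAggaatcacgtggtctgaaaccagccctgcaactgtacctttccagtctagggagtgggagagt

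Of 14 tested cytotoxic genes 6 were lower in Foxp3-positive cells than in CD8 T cells (Prf1, Nkg7, Ctsw, Klrd1, Klrk1 and Klrc1) and none higher, with a median of -3.03 (-2.90 with genes at 0 at their bound). In 39 cells there were 0 UMIs of Klrd1 (at least 17.9-fold lower), Gzmf (at least 16.3-fold), Ifng (at least 7.75-fold), Klrk1 (at least 7.41-fold), Klre1 (at least 5.72-fold), Klrc1 (at least 5.16-fold) and Lag3 (at least 3.09-fold). Cxcr6 gave 1 UMI (ratio 0.0258, interval 0.000651 to 0.145), Ly6c2 1 UMI (0.0193, 0.000486 to 0.108) and Prf1, which encodes perforin, 2 UMIs (0.0327, 0.00395 to 0.119). Nkg7, a cytotoxic granule protein, stood at 388, 501 and 229 against 2233, 2797 and 2194 CPM (-2.91 ± 0.27, adjusted p = 7.88e-25). Gzma, another granzyme and the highest of the list, gave 29 UMIs in Foxp3-positive cells, 28 of them in 1 cell, and did not pass (0.14 ± 2.06, adjusted p = 0.999). Reads of granzyme, killer lectin-like receptor and Ms4a4 genes can be split between near-identical relatives, and so can those of Trbc1 and Trbc2, so single members of these families are less certain than the group.

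Gzmb did not pass either. The transcript of this granzyme was found in 21 of 39 Foxp3-positive cells, at 472, 973 and 1144 CPM, beside 1146, 1179 and 937 CPM in CD8 T cells (-0.63 ± 0.27, adjusted p = 0.271). Foxp3-negative cells held it in 7 of 37 cells, at 320, 1381 and 219 CPM, and 41 of the 52 UMIs behind the Mfn2 value came from 1 cell. The difference between the branches did not pass the test (0.49 ± 0.30, adjusted p = 0.874). With cells thinned to 1500 UMIs, 13 of 29 and 4 of 28 cells held it.

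Checkpoint and exhaustion genes split between the T cell populations. Of 9 tested genes, Ctla4 was higher in Foxp3-positive than in CD8 T cells and 5 were lower: Pdcd1, Lag3, Cd160, Nr4a2 and Rgs16. The call of Lag3 was lost in 5 of 13 alternatives. Foxp3-negative cells also had Ctla4 higher than CD8 T cells, and Cd160 and Nr4a2 lower. Pdcd1 (PD-1) stood at 83.2, 29.5 and 229 against 323, 299 and 237 CPM (-1.60 ± 0.46, adjusted p = 0.0222). Bcl2, a survival gene, was called lower than in CD8 T cells in both branches. It gave 3 UMIs in Foxp3-positive cells, 11 in Foxp3-negative cells and 339 in CD8 T cells (ratio of Foxp3-positive to CD8 T cells 0.0697). The ratio of Foxp3-positive to Foxp3-negative cells was 0.3, with a conditional interval of 0.0537 to 1.13 that includes 1.

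Foxp3-negative CD4 cells also differed from CD8 T cells. The same fit called 32 genes (0.729%) higher and 44 (1.00%) lower; with DESeq2 size factors the split was 41 and 33. Both contrasts with CD8 T cells use the same CD8 sums, so their lists are not independent. Tnfrsf4 (2.72 ± 0.30, adjusted p = 3.76e-16), Maf (3.69 ± 0.44, adjusted p = 2.98e-14), Ctla4 (2.06 ± 0.40, adjusted p = 4.78e-05) and Icos (1.52 ± 0.34, adjusted p = 0.00114) were higher here too. Ramp3, a receptor-modifying membrane protein, was at 380, 106 and 87.5 CPM against 7.24, 8.30 and 0 in CD8 T cells (5.14, adjusted p = 2.14e-08), with 25 UMIs from 10 cells. Foxp3-positive cells held 6 UMIs of it, and the difference between the branches did not pass (adjusted p = 0.696).

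Il7r stood at 700, 159 and 350 CPM in Foxp3-negative cells against 152, 116 and 97.2 in CD8 T cells (1.54 ± 0.38, adjusted p = 0.00473), and Rora at 400, 26.6 and 87.5 against 38.6, 49.8 and 35.0 (2.18, adjusted p = 0.00473). The Mfn2 value of Rora was below its CD8 value, so that difference was not shared by all libraries. Ass1, Slamf6, Il1r2, Ecm1, Podnl1, Trib1 and Iigp1 completed the 10 largest higher genes, at log2 2.58 to 3.38 and 13 to 23 UMIs each. Calls were lost in 7 of 13 alternatives for Iigp1, 3 of 6 for Il1r2 and 3 of 5 for Trib1. Slamf6 and Ecm1 lost theirs in 1 of 8 and 1 of 10, and Ass1 and Podnl1 in 0 of 8 and 0 of 9. For Ecm1, 15 of 23 UMIs came from 1 cell.

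Of the same 14 cytotoxic genes 6 were lower in Foxp3-negative cells than in CD8 T cells (Gzmb, Prf1, Nkg7, Ctsw, Klrd1 and Klrk1) and none higher, with a median of -2.36 (-2.29 with genes at 0 at their bound). Prf1 gave 1 UMI (ratio 0.0149, interval 0.000376 to 0.0832), Ctsw and Klrk1 1 each, Gzmf 2, Ly6c2 3 and Klre1 0 (at least 6.28-fold lower). Nkg7 stood at 400, 770 and 962 CPM (-2.03 ± 0.25, adjusted p = 1.55e-13) and Klrd1 at 120, 79.7 and 87.5 CPM against 473, 747 and 529 (-2.69 ± 0.42, adjusted p = 4.38e-08). Gzmb was lower by the fit (-1.12 ± 0.28, adjusted p = 0.00726), although its Mfn2 value was above the CD8 value. Camp, Ubash3b, Ciapin1 and Nrgn completed the 10 largest lower genes, and 223 of the 228 Camp UMIs in CD8 T cells came from 1 cell. Their calls were lost in 2 of 10, 5 of 13, 7 of 13 and 3 of 13 alternatives. The chemokine gene Ccl5 was far below CD8 T cells in both branches (527, 206 and 1928 CPM in Foxp3-positive, 800, 26.6 and 43.7 in Foxp3-negative, 4414, 7221 and 4784 in CD8 cells) yet did not pass in either contrast (adjusted p = 0.558 and 0.448).

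Several signature genes of other helper lineages gave no UMI in the 76 cells, while others passed the test. Both tested T helper 2 genes, Gata3 and Areg, were higher in Foxp3-positive than in CD8 T cells (median 2.41), and Areg also in Foxp3-negative cells. There Areg stood at 380, 159 and 0 CPM in WT, Mfn2 and Rhot1, so it was not seen in Rhot1. Slamf6 of the follicular helper list was higher than in CD8 T cells in both branches (3.31 and 3.23, adjusted p = 0.00101 and 0.00281). There were 0 UMIs of Il23r (T helper 17), Il4, Il5 and Il13 (T helper 2) and Bcl6, Cxcr5 and Il21 (follicular helper). Il17a gave 2 UMIs, Il22 1, Il2 2 and Il10 1. A count of 0 among 211108 UMIs allows a level of up to 14.2 CPM, and 0 of 76 cells allows a share with a UMI of up to 3.95%, so lower levels were not detectable at this depth. Tbx21, the T helper 1 factor, gave 2 UMIs in each branch. Cd40lg, the CD40 ligand with which CD4 cells help B cells, gave 10 UMIs in 9 Foxp3-negative cells, 1 in Foxp3-positive cells and 1 in CD8 T cells. Ebi3, a subunit of suppressive cytokines, gave 6 UMIs in Foxp3-positive, 8 in Foxp3-negative and 0 in CD8 cells. Tcf7, a factor of naive and memory T cells, gave 5 UMIs in Foxp3-negative and 0 in Foxp3-positive cells.

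Dividing cells were present in both branches. At least 3 of 16 proliferation genes were found in 9 Foxp3-positive cells (23.1%), 3 Foxp3-negative cells (8.11%) and 59 CD8 T cells (24.7%), and in 20.7%, 10.7% and 20.7% once cells were thinned to 1500 UMIs. By library the Foxp3-positive counts were 2 of 15, 4 of 10 and 3 of 14. Mki67 stood at 444, 501 and 196 CPM in Foxp3-positive and 120, 504 and 87.5 in Foxp3-negative cells, a difference that did not pass the test (adjusted p = 0.877). None of 15 tested proliferation genes passed in any of the 3 contrasts.

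UMIs of other cell types were present in the members. Of the 6 marker lists of macrophages, neutrophils, dendritic cells, B cells, tumour cells and stroma, 5 members held 10 or more UMIs of at least 1. In WT this was a Foxp3-negative cell with 472 neutrophil and 35 macrophage UMIs. In Mfn2 a Foxp3-positive cell held 25 macrophage and 12 neutrophil UMIs, and the Foxp3-negative cell of 19170 UMIs held 13 macrophage, 11 tumour and 17 stromal UMIs and was the 1 member marked as a doublet. In Rhot1 a Foxp3-positive cell held 150 neutrophil UMIs and a Foxp3-negative cell of 8883 UMIs held 94 macrophage and 11 dendritic cell UMIs. Summed over the sums of both branches, macrophage markers made up 0.0610% to 0.468% of UMIs and neutrophil markers 0.00875% to 0.972%, beside 0.135% to 0.188% and 0.0159% to 0.334% in CD8 T cells. Without all such cells, an alternative added after seeing the data, the contrast between the branches held 5 higher and 6 lower genes, and Tnfrsf4 and Tnfrsf18 no longer passed (adjusted p = 0.391 and 0.559).

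**Figure D4:**
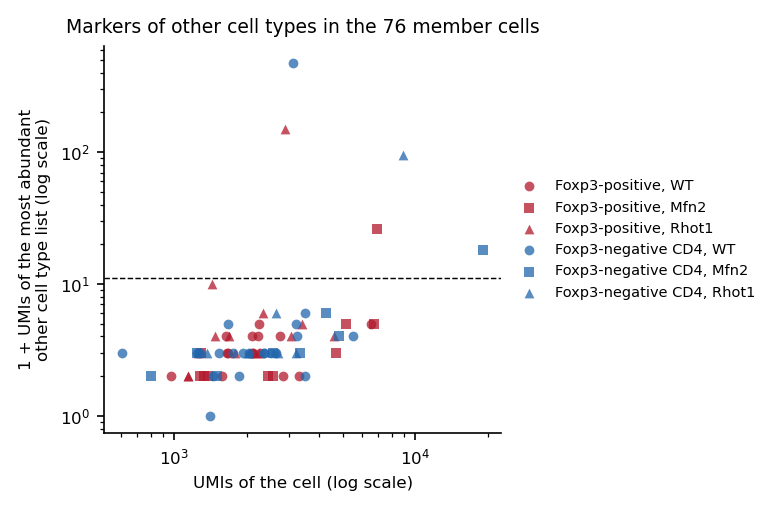
Each point is 1 CD4 or Foxp3 T cell, with its UMIs (x axis, log scale) and 1 plus its UMIs of the most abundant of 6 marker lists of other cell types (y axis, log scale); the dashed line marks 10 UMIs. The 5 cells at or above the line include the WT cell with 472 neutrophil UMIs.

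Between Mfn2 and WT, levels over all members were compared by size. All members pool both branches, and Foxp3-positive cells were 40.5%, 55.6% and 66.7% of them in WT, Mfn2 and Rhot1. For a gene that differs between the branches, the genotype ratios below therefore also depend on that mix. Among 1661 genes at a mean of 100 CPM or more, 148 (8.91%) were 2-fold or more higher in Mfn2 and 162 (9.75%) lower, on log2(CPM + 5); the conditional interval of the ratio left out 1 for 187 of these 310. The Mfn2 members held 71591 UMIs, 19170 of them from 1 cell. Of 7 regulatory identity genes measured 0 were past 2-fold in either direction, with a median log2 ratio of 0.04 beside 0.06 for all genes.

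Several genes of resting T cells and of T cell receptor signalling were lower in the Mfn2 library. Il7r stood at 639 CPM in WT, 154 in Mfn2 and 412 in Rhot1, a Mfn2 ratio of 0.240 (0.113 to 0.464), with 22 of 37, 5 of 18 and 15 of 21 cells holding it. Klf2, a factor that keeps T cells quiescent and recirculating, had a ratio of 0.294 (0.137 to 0.577). Skap1, an adaptor of T cell receptor signalling, stood at 314 CPM in 17 of 37 WT cells and 27.9 CPM in 2 of 18 Mfn2 cells, a ratio of 0.0890 (0.0103 to 0.354). In CD8 T cells Skap1 stood at 311, 307 and 389 CPM. Of 4 naive and central memory genes measured 3 were lower and 1 higher, of 15 T cell receptor signalling genes 4 were lower and none higher (median -0.86), and of 11 effector regulatory genes 4 were lower and none higher (median -0.60). Without the cells that held 10 or more UMIs of another cell type, the last 2 medians were -0.29 and -0.03.

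Genes of activation and division were among the higher ones in Mfn2. Gzmb stood at 383 CPM in WT and 1187 in Mfn2, a ratio of 3.10 (2.05 to 4.78), with 41 of its 85 Mfn2 UMIs in 1 cell. Top2a, a gene of dividing cells, had a ratio of 3.05 (1.64 to 5.96) and Pgam1, a glycolytic enzyme, 3.09 (1.63 to 6.20). The proteasome subunit gene Psma6 was the highest of the genes at 200 CPM or more, at 3.74 (1.72 to 9.01), and Ranbp1 and Cct2 stood at 3.13 and 2.96. Of 6 proliferation genes 2 were higher (Top2a and Cenpf) and none lower, with a median of 0.98. Cenpf had 12 of its 20 Mfn2 UMIs in 1 cell, and its ratio interval included 1 (0.998 to 5.05).

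Among genes at a mean of 200 CPM or more, the 6 lowest Mfn2 ratios had most of their WT UMIs in 1 cell. Penk gave 118 UMIs in WT and 0 in Mfn2 (at least 32.7-fold lower), Il1b 35 and 0 (at least 9.71-fold) and Ifitm1 16 and 0 (at least 4.44-fold), with 111, 30 and 14 of the WT UMIs in 1 cell each. Below that level, the heat shock genes Hspa1a and Hspa1b gave 20 and 17 UMIs in WT, spread over 11 cells each, and 0 in Mfn2 (at least 5.55-fold and 4.71-fold lower). S100a8, S100a9 and Cxcl2 had ratios of 0.0563, 0.0630 and 0.0707, and 247, 219 and 195 of their WT UMIs came from 1 cell each. With the cell richest in each gene left out of each library, 37 genes rather than 148 were 2-fold or more higher. Of 6 mitochondrially encoded genes 1 was 2-fold or more higher in Mfn2, with a median of 0.66, and 0 were past 2-fold in Rhot1, with a median of 0.15. That gene, mt-Cytb, had a Mfn2 ratio of 2.50 (2.03 to 3.08), with 112 of its 289 Mfn2 UMIs in 1 cell, and mt-Nd4 and mt-Nd2 had ratios of 1.79 (1.28 to 2.52) and 1.71 (1.21 to 2.43). Without the cell richest in each gene, the Mfn2 median was 0.07. Of 28 nuclear respiratory chain genes 1 was higher (Cyc1) and 1 lower (Ndufa1) in Mfn2, and 1 higher (Uqcrc2) and 1 lower (Ndufa1) in Rhot1, with medians of 0.20 and 0.16. Of 3 genes of mitochondrial dynamics and transport 0 were past 2-fold in either library.

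In the Rhot1 library 133 genes (8.01%) were 2-fold or more higher than in WT and 108 (6.50%) lower; the interval left out 1 for 95 of these 241. Batf, a transcription factor of activated and tissue regulatory T cells, stood at 46.5 CPM in WT and 262 in Rhot1, a ratio of 5.63 (1.77 to 23.5), with 4 of 37 and 12 of 21 cells holding it. Isg15, an interferon-stimulated gene, had a ratio of 5.10 (1.96 to 15.6), with 2 and 8 cells holding it and 8 of its 19 Rhot1 UMIs in 1 cell, and Bst2 of 2.68. Tnfrsf4 had a ratio of 1.88 (1.39 to 2.54), below the 2-fold rule. With the branches apart, it stood at 1636 CPM in WT and 2549 in Rhot1 in Foxp3-positive cells, and at 500 and 875 in Foxp3-negative cells. Of 8 interferon-stimulated genes 4 were 2-fold or more higher (Isg15, Bst2, Ifi27l2a and Zbp1) and 1 lower (Gbp4), with a median log2 ratio of 0.76 beside 0.05 for all genes.

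Several genes of dividing cells were lower in Rhot1. Stmn1, a microtubule regulator abundant in dividing cells, had a ratio of 0.174 (0.0451 to 0.484), and the histone and nuclear genes H2ac24, H1f5 and Tmpo had ratios of 0.149, 0.201 and 0.179. Of 6 proliferation genes 3 were lower (Cenpf, Ube2c and Pclaf) and none higher (median -0.94). These 3 gave 3 UMIs each in Rhot1, and their ratio intervals included 1 (upper limits 1.66, 1.35 and 1.35). In WT, 9 of 11, 7 of 13 and 10 of 13 of their UMIs came from 1 cell each. Top2a was not among the lower genes, at 1.50 times WT (0.672 to 3.34). Cells with at least 3 proliferation genes were 3 of 14 Foxp3-positive and 0 of 7 Foxp3-negative cells in Rhot1 beside 2 of 15 and 1 of 22 in WT. Wfdc17 and Macf1 completed the lowest 6, at 0.218 and 0.258, and 48 of the 59 WT UMIs of Wfdc17 came from 1 cell. Of the highest, Eea1 had a ratio of 4.02 (1.70 to 10.6) and Ifitm1 4.83 with 36 of 48 Rhot1 UMIs in 1 cell, and Arg1, Pf4, Lyz2 and Mt1, at 13.7, 10.3, 4.41 and 3.88, drew 34, 57, 42 and 24 of their Rhot1 UMIs from 1 cell each. Regulatory identity genes had 1 of 7 higher and none lower, with a median of 0.39.

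**Figure D5:**
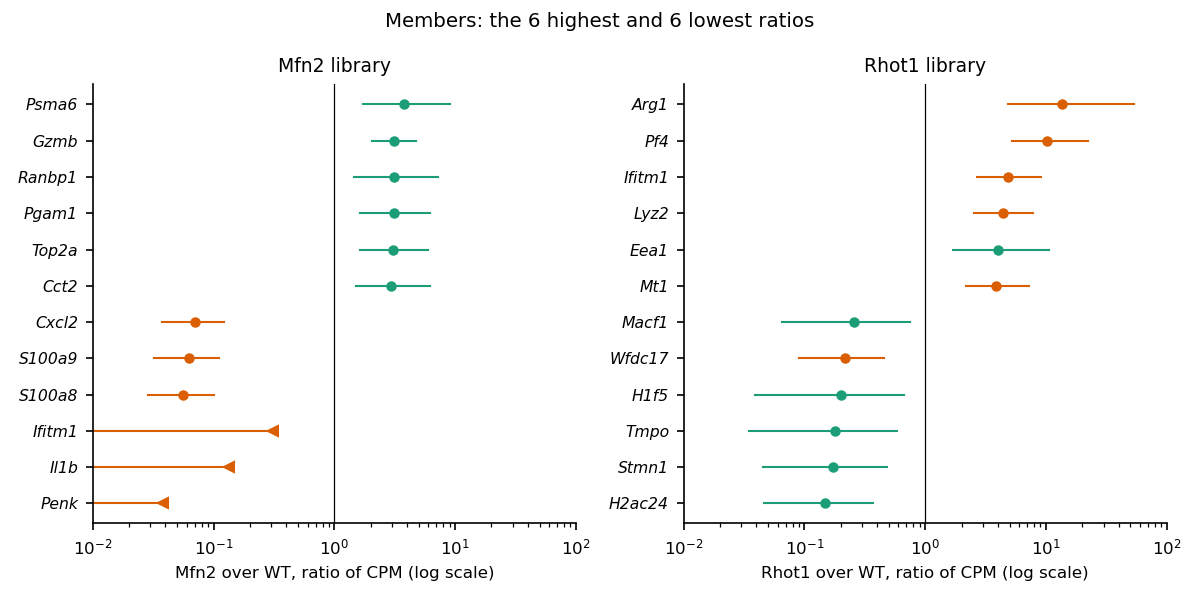
Ratio of CPM in all CD4 and Foxp3 T cells of the Mfn2 or Rhot1 library to WT (log axis) with the exact conditional 95% interval, for the 6 highest and 6 lowest genes of each; orange marks genes with over 50% of the UMIs of the higher library in 1 cell, and triangles are upper bounds where the knockout library held 0 UMIs. Gzmb in Mfn2 stands at 3.10 and Stmn1 in Rhot1 at 0.174.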

How the data were processed

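Each library is a filtered matrix of raw UMI counts per gene and cell that the authors deposited; per the file headers it was made with Cell Ranger 7.0.0, and per the submitters' processing notes with the mm10 genome. The members and gene lists were chosen with earlier results of these data known. Cells were kept at 300 or more genes and at most 15% mitochondrial UMIs. Scrublet (scanpy 1.11.5), run per library, marked 2.49% to 3.47% of kept cells as doublets; they were kept, and their removal is an alternative. UMIs were summed per library for Foxp3-positive, Foxp3-negative and CD8 T cells (9 sums of 22865 to 414325 UMIs). edgeR 4.0.16 fitted them with TMM scaling, a library block and 4 residual degrees of freedom, over genes at a mean of 30 CPM or more and 30 UMIs in all, with an adjusted p threshold of 0.05. Genotype ratios use summed CPM, a pseudocount of 5 CPM and exact conditional intervals; levels carry Poisson and shares Clopper-Pearson intervals. Thinning drew 1500 UMIs per cell. Named genes were the 10 largest log2 differences each way among calls at 50 CPM or more with 1 sign in all libraries, list members that were called or among the 2 highest and 2 lowest of a list, and the 6 highest and lowest genotype ratios at 200 CPM or more (mitochondrial, ribosomal, receptor segment, unnamed and rule genes left out of that ranking). Tnfsf8, Ccl1, Ccl5, Cd40lg, Ebi3, Lrrc32 and other genes outside that rule were named after their values were seen. Other alternatives, such as DESeq2 1.42.0, are in the closing section. Gene positions are from GENCODE release 21 annotation of the mouse (mm10); 94.1% of 55357 gene IDs matched. The test scripts were tested on simulated data.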

Additional observations from a re-analysis of the deposited data

How the results depend on the processing

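No replicated or paired comparison of the genotypes was possible, because each genotype is 1 library. The edgeR fit of the populations has the library as a block, so populations are compared within libraries. Without the block, that fit called 2 genes higher and 2 lower between the branches and 21 higher in Foxp3-negative than in CD8 T cells. No named gene of the 3 contrasts changed sign under any alternative that gave it a value. The calls between the branches, 5 higher and 8 lower, were 2 and 0 with the DESeq2 Wald test (43 lower at an unadjusted p under 0.05), 2 and 7 without the low-count filter, 2 and 2 with only the 2 populations in the fit, 1 and 5 with cells thinned to 1500 UMIs, 3 and 8 with doublets removed and 0 and 3 with 2 or more Cd4 UMIs required of Foxp3-negative cells. That last setting left 9, 2 and 1 Foxp3-negative cells in WT, Mfn2 and Rhot1. In it 306 genes were higher at an unadjusted edgeR p under 0.05, while the median log2 difference over all genes was 0.53, beside 0.02 in the main fit. Leaving out 1 library gave 0 to 3 higher and 1 to 2 lower.

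For Foxp3-negative against CD8 T cells, 32 higher and 44 lower genes became 19 and 11 with DESeq2, 13 and 22 with only those populations, 15 and 17 when thinned, and 5 and 18 with 2 or more Cd4 UMIs; doublet removal gave 56 higher and no filter 82 lower. Leaving out 1 library gave 7 to 38 higher and 15 to 23 lower. For Foxp3-positive against CD8 T cells, 58 and 98 became 38 and 23 with DESeq2, 29 higher when thinned and 43 lower with 2 or more Cd4 UMIs; leaving out 1 library gave 29 to 45 higher and 25 to 28 lower. The cause of these changes was not tested.

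Genes at 2-fold between Mfn2 and WT (148 higher, 162 lower) were 427 and 420 at a minimum of 50 CPM, 35 and 51 at 200 CPM, and 327 and 259 when thinned; for Rhot1 (133 and 108) they were 431 and 368, 32 and 18, and 236 and 197, and 49 higher without the richest cell of each gene (37 for Mfn2). The share of members with 2 or more Cd4 or Foxp3 UMIs was 0.215%, 0.0912% and 0.0962% in WT, Mfn2 and Rhot1, that of thinned cells 0.253%, 0.0920% and 0.118%, that of cells with 3 or fewer keratin UMIs 0.748%, 0.405% and 0.496%, that of CD3-positive cells 8.64%, 10.8% and 8.37% (Mfn2 ratio 1.25), and that of CD3-positive cells within the limits 11.6%, 18.0% and 12.6% (ratios 1.55 and 1.08). With 2 or more Cd4 or Foxp3 UMIs there were 0.171, 0.220 and 0.111 members per CD8 T cell and 55.0%, 77.8% and 88.9% of members were Foxp3-positive; with 2 or more Foxp3 UMIs the Foxp3-positive shares were 18.9%, 22.2% and 28.6%. Depth is one limit: 19 of 76 members held under 1500 UMIs, and 38 rest on 1 Cd4 or Foxp3 UMI.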

Other observations

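Ly6a, an interferon-inducible surface protein, stood at 1498, 1474 and 1994 CPM in Foxp3-positive cells of WT, Mfn2 and Rhot1, at 1180, 850 and 875 in Foxp3-negative cells and at 299, 473 and 568 in CD8 T cells. It passed the edgeR test against CD8 T cells in Foxp3-positive cells (log2 difference 1.69 ± 0.25, adjusted p = 6.53e-09) and in Foxp3-negative cells (1.02 ± 0.26, adjusted p = 0.00900), and the branches did not pass against each other (0.68 ± 0.26, adjusted p = 0.587). Cd2 and Cd5, surface receptors of T cells, were higher in Foxp3-positive than in CD8 T cells, by 1.50 ± 0.30 (adjusted p = 7.85e-05) and 1.87 ± 0.45 (adjusted p = 0.00183), whereas Thy1, another T cell surface protein, was lower (-1.17 ± 0.35, adjusted p = 0.0286). Of 18 T cell receptor signalling genes, these 2 were higher and Themis and Trbc2 lower. The mitochondrially encoded gene mt-Co1 stood at 388, 236 and 425 CPM in Foxp3-positive and 690, 490 and 712 in CD8 T cells (-1.08 ± 0.32, adjusted p = 0.0286), and 1 of 9 mitochondrially encoded genes passed.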
